A study of Mus musculus with 8 samples.

Results

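The RNAs described here are the small nucleolar RNAs (snoRNAs) and small Cajal body RNAs (scaRNAs) that had at least 20 read counts summed over the 8 libraries of the series. They were chosen by these measured counts, summed over Input and pull-downs alike, and were 19 of the 150 genes with a symbol beginning Snora, Snord or Scarna, in a count table of 55471 genes. By symbol, 10 were H/ACA snoRNAs (Snora), 3 were C/D snoRNAs (Snord) and 6 were scaRNAs (Scarna). Annotated lengths ran from 131 to 414 nt with a median of 148 nt, and all 19 had the same length in the deposited table as in the annotation used here.

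H/ACA snoRNAs carry the pseudouridine synthase dyskerin to sites in ribosomal RNA, and C/D snoRNAs carry the ribose methylase fibrillarin to theirs, each by base pairing with the target. scaRNAs use the same kinds of protein complex, but stay in Cajal bodies, where they guide the modification of spliceosomal RNAs. Most mammalian members are cut out of introns of host genes, and in motor neurons the Cajal body is of interest because it contains SMN, the protein lost in spinal muscular atrophy.

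The libraries came from motor neurons differentiated in culture from the mouse embryonic stem cell line HBG3, which carries an HB9::GFP reporter, and kept for 3 days after plating. The cells of every group were of this line, and the labels name no sort of the reporter-positive cells. RNA was captured with biotinylated antisense probes of 20 nt. The ODD and EVEN probe sets were both directed at the long noncoding RNA Lhx1os, and the LacZ set, against a bacterial mRNA, was the negative control. Input, RNA that was not pulled down, is the remaining group. The labels describe independent experiments 1 and 2 (replicate 1 and replicate 2), so each of the 4 groups had 2 libraries, all prepared from ribosome-depleted total RNA with a strand-specific kit.

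The sequences below are those of the members on which the results turn: the H/ACA snoRNAs and the scaRNA with the largest measured rises over Input, the near-identical Snora73 copies, a composite scaRNA with both kinds of domain, and the most counted C/D snoRNA. They are GENCODE transcripts of release M21 on build GRCm38, written 5′ to 3′ as DNA. Capitals mark, near the 3′ end, the ACA box of an H/ACA RNA or the D box (CTGA) of a C/D RNA, and near the 5′ end the C box (TGATGA). Snora21 is at chr11:97781639-97781775, minus strand, Snora23 at chr7:110046364-110046547, plus strand, Scarna3a at chr1:159340283-159340422, plus strand, Snora73a at chr4:132352775-132352979, minus strand, Snora73b at chr4:132352322-132352526, minus strand, Snord17 at chr2:144265979-144266216, minus strand and Scarna6 at chr1:87784556-87784820, plus strand.
Snora21: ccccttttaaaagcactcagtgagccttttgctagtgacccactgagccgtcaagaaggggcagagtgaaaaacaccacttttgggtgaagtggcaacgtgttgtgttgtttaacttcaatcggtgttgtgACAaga
Snora23: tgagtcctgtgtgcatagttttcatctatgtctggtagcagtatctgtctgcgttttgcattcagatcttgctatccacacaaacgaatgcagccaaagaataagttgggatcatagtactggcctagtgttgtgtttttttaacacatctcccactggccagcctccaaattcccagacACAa
Scarna3a: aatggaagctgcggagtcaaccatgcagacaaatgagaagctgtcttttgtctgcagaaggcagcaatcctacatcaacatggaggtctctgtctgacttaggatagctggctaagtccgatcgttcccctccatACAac
Snora73a: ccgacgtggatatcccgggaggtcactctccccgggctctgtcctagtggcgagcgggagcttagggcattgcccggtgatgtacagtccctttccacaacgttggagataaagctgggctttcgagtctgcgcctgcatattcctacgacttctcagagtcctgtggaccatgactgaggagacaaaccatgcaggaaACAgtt
Snora73b: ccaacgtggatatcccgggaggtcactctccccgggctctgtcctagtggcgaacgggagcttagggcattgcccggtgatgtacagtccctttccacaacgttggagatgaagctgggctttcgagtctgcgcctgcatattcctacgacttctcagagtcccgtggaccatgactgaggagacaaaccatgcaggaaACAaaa
Snord17: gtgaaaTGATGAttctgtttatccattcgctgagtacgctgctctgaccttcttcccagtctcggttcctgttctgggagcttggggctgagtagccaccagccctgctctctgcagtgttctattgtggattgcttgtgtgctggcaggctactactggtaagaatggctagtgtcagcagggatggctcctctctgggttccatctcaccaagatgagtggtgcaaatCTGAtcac
Scarna6: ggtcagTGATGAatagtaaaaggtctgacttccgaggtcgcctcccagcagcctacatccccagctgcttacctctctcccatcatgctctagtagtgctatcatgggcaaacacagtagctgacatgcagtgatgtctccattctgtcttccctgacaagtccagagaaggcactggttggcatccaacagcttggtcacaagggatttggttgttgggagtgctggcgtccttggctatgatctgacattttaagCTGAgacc

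The boxes were found as follows. ACA starting in the last 8 bases was present in 10 of 10 H/ACA members, 3 of 6 scaRNAs (Scarna3a, Scarna8 and Scarna13) and 0 of 3 C/D members, against 9.30% of 15171 other transcripts of 131 to 414 nt. CTGA starting in the last 20 bases was present in 3 of 3 C/D members and in 10.9% of the other transcripts. It was also in 3 of 6 scaRNAs and in 3 of 10 H/ACA members, which carry the ACA box too. TGATGA within the first 25 bases was found in Snord17, Snord15a, Scarna6 and Scarna10, and in 1.10% of the other transcripts. The C/D member Snord118 and Scarna2, which has the CTGA letters, had no TGATGA there. Letters were searched on the transcript strand only, and a match is a description of the letters, not a shown site. Snora73a and Snora73b, each of 205 nt, differed at 7 positions (96.6% identity), so reads that fall between these positions cannot be told apart.

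Counts per library summed to 24628435 and 20515501 for Input and to between 7632775 and 12563449 for the 6 pull-downs. Levels in CPM below are counts scaled to library size, with sizes corrected by the trimmed mean of M-values, and FPKM are the deposited length-corrected values. The target Lhx1os stood at 2.27 and 2.97 CPM in Input and 2.06 and 2.44 CPM with LacZ probes, against 180 and 35.7 CPM with ODD and 150 and 25.4 CPM with EVEN probes, lower with both Lhx1os sets in experiment 2. The 8 motor neuron markers summed to between 739 and 1601 CPM per library, and the pluripotency gene Pou5f1 was at 0 counts in all 8. The myelin gene Mbp, an oligodendrocyte marker, was at 252 to 360 CPM in the libraries of experiment 1 and at 40.2 to 56.2 CPM in those of experiment 2, with Mog, another such marker, at 0 or 1 count in each of the 8. The RNA was from whole cultures, so a change in the number of cells of a type and a change in RNA per cell cannot be told apart.

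Which of the annotated RNAs gave counts went with their length and their overlap with other exons. Of the 150 genes, 118 had 0 counts, which over 8 libraries allows a level of up to 0.0273 CPM, and 13 had 1 to 19 counts. Among genes of at least 130 nt that had under 50% of their bases inside a same-strand exon of another gene, 19 of 20 had a count and 14 were members. Among those of the same length with 50% or more of their bases covered, 5 of 25 had a count, all of them members. Below 130 nt, 8 of 62 uncovered and 0 of 43 covered genes had a count, and none reached 20. The limits of 130 nt and 50% were chosen after the values were seen. The sources do not state how reads in overlapping exons were assigned. C/D snoRNAs are mostly short, and 95 of the 99 C/D genes were under 130 nt.

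**Figure D1:**
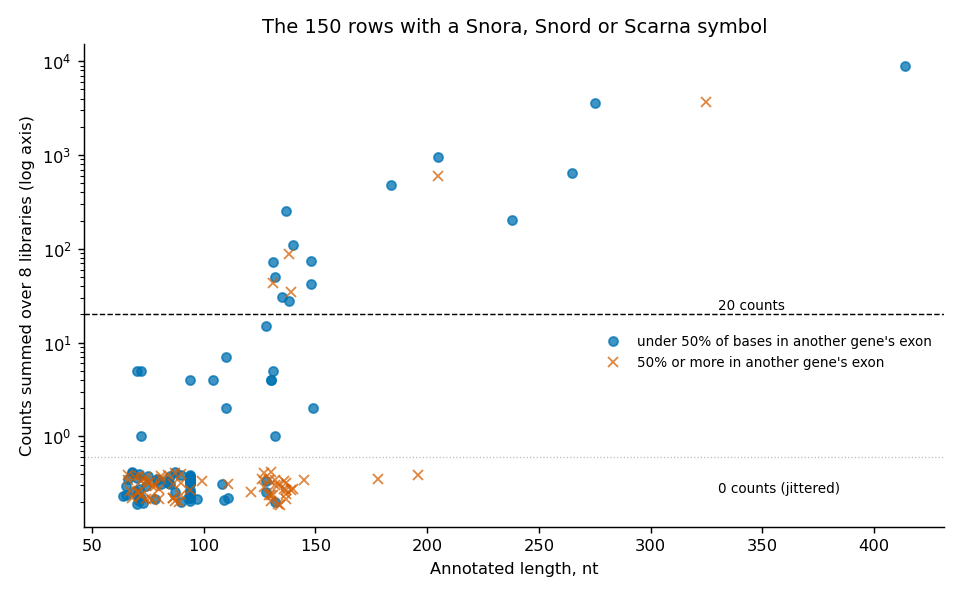
Counts summed over the 8 libraries (log axis, with genes at 0 counts drawn below the dotted line) against annotated length in nt for the 150 genes with a Snora, Snord or Scarna symbol; circles have under 50% and crosses 50% or more of their bases in a same-strand exon of another gene, and the dashed line is the minimum of 20 counts. All 19 members lie at 131 nt or longer, and most genes under 130 nt are at 0.

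The members just inside the minimum were Snora47 with 28, Snord118 with 31 and Snora43 with 35 counts. Just outside it were Snora78 with 15, Snord8 with 7, and Snord49b, Snord104 and Snora69 with 5 each. Among snoRNAs of particular interest in neurons, the 17 copies of the imprinted, brain-enriched Snord116 family, all annotated at 94 nt, had 0 counts except for 4 in Snord116l12, and Snord64 of the same imprinted region had 0. Of the snoRNAs known for roles in rRNA cleavage, Snora74a and the 4 Snord14 genes had 0 and Snord13 had 4 counts, whereas Snora73a and Snora73b, which act in cleavage of the small-subunit precursor, and Snord118 (U8), which is needed for the large-subunit rRNAs, were members.

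On the length-corrected FPKM scale the scaRNAs led. Scarna2, which guides methylation of the U2 spliceosomal RNA, had a mean FPKM over the 8 libraries of 208 ± 91.3 (SD between libraries), rank 72 of 28192 genes with counts. Scarna13, built of tandem H/ACA domains, followed at 136 ± 66.6 (rank 164), and Scarna10, a composite C/D and H/ACA guide for the U5 spliceosomal RNA, at 112 ± 32.6 (rank 215). These neighbours differed by less than their spread. The most abundant H/ACA snoRNA was Snora73b at 51.7 ± 44.6 FPKM (rank 684), then Snora73a at 32.7 ± 30.8 and Snora23 at 30.0 ± 36.1. Snord17 led the C/D class at 8.58 ± 2.66 FPKM (rank 6071), and Snora47 was lowest at 2.33 ± 1.93 (rank 11120). Across the 19 members, length and mean FPKM had a Spearman rho of 0.745, points that share the same libraries and depth.

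**Figure D2:**
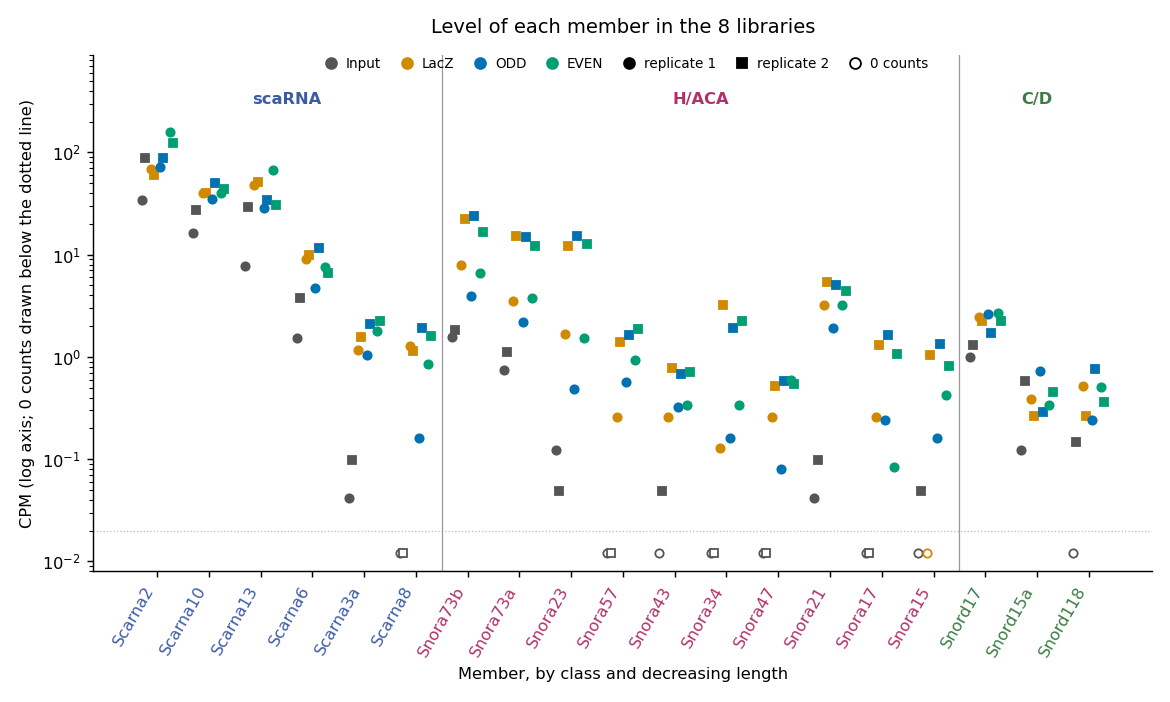
CPM of the 19 members in each of the 8 libraries (log axis), by class and decreasing length, with the group as colour, experiments 1 and 2 as circles and squares, and 0 counts as open symbols below the dotted line. For most H/ACA members the Input points lie lowest, the experiment 1 pull-downs in between and the experiment 2 pull-downs highest, while the long scaRNAs span a narrower range.

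All 19 members were above the 20-count minimum in the pull-downs alone, but only 7 reached it in Input alone: Scarna2, Scarna10, Scarna13, Scarna6, Snora73a, Snora73b and Snord17. The other 12 were chosen through their pull-down counts. Their rises and the tests of them are therefore given as values and support nothing, singly or as a group. The comparisons of LacZ, ODD and EVEN with Input share the 2 Input libraries. A test across all genes (edgeR quasi-likelihood, group as the only term, Benjamini-Hochberg adjustment at 0.05) included 15 members, leaving out Snora43, Snora47, Snord15a and Snord118 for low counts.

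Of the 10 H/ACA members only Snora73a and Snora73b reached the minimum in Input alone. Together they were at 2.64 ± 0.470 CPM in Input and at 24.4 ± 18.5, 22.2 ± 22.8 and 19.6 ± 12.9 CPM with LacZ, ODD and EVEN probes (mean ± SD, n = 2 each). Within experiments that was 4.92-fold, 2.65-fold and 4.55-fold Input in experiment 1 and 12.6-fold, 12.9-fold and 9.68-fold in experiment 2. For all 10, a sum whose ratio is raised by the choice of the other 8 through their pull-down counts, the level was 2.84 ± 0.525 CPM in Input and 40.3 ± 32.4, 38.3 ± 39.998 and 35.5 ± 24.9 CPM with LacZ, ODD and EVEN probes. Snora73b made up 36.04% of this sum.

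Snora73b was at 1.57 and 1.85 CPM in Input (experiments 1 and 2), 7.86 and 22.3 CPM with LacZ, 3.94 and 23.6 CPM with ODD and 6.68 and 16.5 CPM with EVEN probes. Its near-copy Snora73a was at 0.742 and 1.12 CPM in Input, 3.48 and 15.2 CPM with LacZ, 2.17 and 14.7 CPM with ODD and 3.81 and 12.2 CPM with EVEN. In both, each of the 6 pull-down libraries was above each Input library. The mean of the pull-downs was 7.90-fold and 9.24-fold the Input mean for Snora73b and Snora73a. With LacZ probes the log2 fold change was 3.15 (SE 0.939) for Snora73b and 3.34 (SE 1.12) for Snora73a, and neither passed edgeR's test with group alone (adjusted p = 0.110 and 0.154). With the experiment as a further term both passed with all 3 probe sets, with log2 fold changes over Input from 2.62 to 3.13 and adjusted p from 0.00328 to 0.00895. For Snora73a, 77.6% of the bases also lie in an exon of Snhg3 and both genes have the antisense gene Gm17300 opposite, so their counts are uncertain.

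Snora21, known as a guide for large-subunit rRNA, had 1 and 2 counts in Input and between 24 and 62 counts in every pull-down library, that is 0.0412 and 0.0974 CPM against 3.22 and 5.396 (LacZ), 1.93 and 5.10 (ODD) and 3.22 and 4.404 CPM (EVEN). No pull-down library came near the Input level, and from pooled counts the pull-downs were 57.6-fold higher (95% exact interval 19.5 to 281, counting error only). It passed edgeR's test with each probe set, with log2 fold changes of 5.83 (SE 0.747, adjusted p = 0.00615) for LacZ, 5.52 (SE 0.749, adjusted p = 0.00789) for ODD and 5.64 (SE 0.747, adjusted p = 0.00965) for EVEN. Snora23, which also guides large-subunit rRNA, differed widely between experiments. It had 3 and 1 counts in Input, and stood at 0.124 and 0.0487 CPM there, at 1.68 and 12.1 CPM with LacZ, 0.483 and 15.4 CPM with ODD and 1.52 and 12.7 CPM with EVEN probes. Its mean over the pull-downs was 84.8-fold the Input mean, a ratio that rests on 4 Input counts, and its log2 fold change of 6.17 (SE 2.13) with LacZ missed the threshold with group alone (edgeR adjusted p = 0.167). It passed with the experiment as a term (6.01, SE 0.880, adjusted p = 0.00361) and by DESeq2 with group alone (adjusted p = 0.0140). Snora21 and Snora23 were both chosen through their pull-down counts, so these tests are not support for a rise.

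Of the other H/ACA members, 4 had 0 counts in both Input libraries, where 3 counts would be 0.0670 CPM over the group. Snora57 had 2 and 16 counts with LacZ, 7 and 17 with ODD and 11 and 21 with EVEN, at least 16.6-fold higher on average than this floor. It passed edgeR's test with EVEN probes only just (adjusted p = 0.0498), which is not support for a rise, since its pull-down counts alone made it a member. Snora34 had 1 and 37, 2 and 20, and 4 and 25 counts (at least 19.96-fold higher), Snora17 between 1 and 17 counts (at least 11.5-fold higher) and Snora47 between 1 and 7 counts (at least 6.39-fold higher). Snora15 and Snora43 had 1 Input count each, and the ratios of 28.9 (95% exact interval 4.92 to 1170) and 23.4 (3.93 to 952) say little about size. Snora34 shares 66.7% of its bases with Mir1291, Snora15 77.9% with a Cct6a exon and Snora43 91.4% with another annotated copy of itself that had 0 counts.

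The C/D members were low, and none was called over Input. Their summed level was 1.58 ± 0.660 CPM in Input and 3.07 ± 0.401, 3.204 ± 0.589 and 3.30 ± 0.352 CPM with LacZ, ODD and EVEN probes (n = 2 each), and 73.3% of it was Snord17. Snord17, the C/D snoRNA of the Snx5 gene, was at 0.989 and 1.32 CPM in Input, 2.45 and 2.26 CPM with LacZ, 2.65 and 1.73 CPM with ODD and 2.71 and 2.25 CPM with EVEN. Every pull-down library was above both Input libraries, but none of the differences passed edgeR's test (log2 fold changes 1.03, SE 0.366, for LacZ, 0.93, SE 0.363, for ODD and 1.10, SE 0.361, for EVEN; adjusted p = 0.180, 0.227 and 0.153), nor with the experiment as a term (adjusted p = 0.0708, 0.0908 and 0.0518). Snord15a, a methylation guide encoded in Rps3, had 3 and 12 counts in Input and 3 to 9 in the pull-downs, a ratio of mean CPM of 1.15 that averages 2.74-fold to 5.86-fold in experiment 1 and 0.447-fold to 0.769-fold in experiment 2. Snord118 had 0 and 3 counts in Input and 3 to 8 in the pull-downs (6.43-fold, 95% exact interval 1.99 to 33.1).

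The 4 long, abundant scaRNAs reached the minimum in Input alone and were close to Input or a few fold above it. Scarna2 was at 34.4 and 87.3 CPM in Input, 69.5 and 60.4 CPM with LacZ, 71.5 and 87.2 CPM with ODD and 159 and 123 CPM with EVEN probes. Its LacZ and ODD libraries lay within the range of the Input libraries, and its EVEN libraries above it. Scarna10 was at 16.3 and 27.2 CPM in Input and between 34.995 and 50.1 CPM in the 6 pull-downs, all above Input. Its log2 fold changes of 0.87, 0.97 and 0.94 (LacZ, ODD, EVEN) did not pass edgeR's test with group alone (adjusted p = 0.141, 0.110 and 0.125) and passed with the experiment as a term (0.91, 0.98 and 0.97, adjusted p = 0.0160, 0.0121 and 0.0134). DESeq2 with group alone called it with ODD only (adjusted p = 0.0680, 0.0363 and 0.0567). Scarna13 was at 7.75 and 29.2 CPM in Input, 47.4 and 51.4 CPM with LacZ, 28.9 and 34.5 CPM with ODD and 67.9 and 30.9 CPM with EVEN. Within each experiment all 3 pull-downs were above Input, by 3.73-fold to 8.76-fold in experiment 1 and 1.06-fold to 1.76-fold in experiment 2. Its differences did not pass edgeR's test with group alone or with the experiment as a term. Scarna6, another composite guide, was at 1.52 and 3.75 CPM in Input and between 4.75 and 11.5 CPM in the pull-downs. By edgeR it did not pass with group alone (adjusted p = 0.104, 0.152 and 0.208) and passed with the experiment as a term (log2 fold changes 1.90, 1.62 and 1.53, adjusted p = 0.0148, 0.0272 and 0.0352). DESeq2 with group alone called it with LacZ and ODD (adjusted p = 0.0151 and 0.0448). The pull-down means of Scarna2, Scarna10, Scarna13 and Scarna6 were 1.56-fold, 1.90-fold, 2.36-fold and 3.12-fold the Input means, and all 4 were higher in Input of experiment 2 than of experiment 1, by 1.67-fold (Scarna10) to 3.77-fold (Scarna13). In the annotation, 87.1% of Scarna10 lies in exons of Ncapd2 and Gm28967, so its counts are uncertain.

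Scarna3a and Scarna8 have a single H/ACA domain and are shorter. Scarna3a had 1 and 2 counts in Input and 9 to 25 in each pull-down, or 0.0412 and 0.0974 CPM against 1.16 and 1.57 (LacZ), 1.05 and 2.11 (ODD) and 1.78 and 2.25 CPM (EVEN). It passed edgeR's test with each probe set, with log2 fold changes of 4.18 (SE 0.648, adjusted p = 0.0107), 4.36 (SE 0.637, adjusted p = 0.00969) and 4.72 (SE 0.628, adjusted p = 0.00977) for LacZ, ODD and EVEN. From pooled counts it was 24.8-fold higher (95% exact interval 8.26 to 122), and 46.4% of its bases overlap Mir1843b. Scarna8 had 0 counts in Input and 10 and 13 (LacZ), 2 and 20 (ODD) and 10 and 18 (EVEN) in the pull-downs, at least 17.3-fold higher. Both were chosen through their pull-down counts, so the tests of Scarna3a are not support for a rise.

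In counts, 2 of the 15 tested members were called higher than Input with LacZ probes (Snora21 and Scarna3a), the same 2 with ODD and 3 with EVEN (Snora57 as well), and 0 were called lower, all 15 being above Input by sign. Over all 16524 tested genes the share called higher was 6.98%, 6.46% and 5.37%, and the share called lower 0.43%, 0.375% and 0.284%. DESeq2 called 10, 11 and 8 members higher against 8.67%, 8.16% and 7.53% of all genes, and edgeR with no filter on low counts 15, 14 and 16 of the 19 against 6.37%, 6.34% and 5.81%. With the experiment as a term, 12, 12 and 13 of the 15 were called higher against 12.7%, 12.6% and 12.8% of all genes: the 8 tested H/ACA members with each probe set, Scarna3a, Scarna6, Scarna8 and Scarna10 with each, and Scarna2 with EVEN. That count fell to 4 for LacZ without the LacZ library of experiment 2, to 3 for ODD without the ODD library of experiment 2 and to 7 for EVEN without the EVEN library of experiment 1, where 5.38%, 6.81% and 5.00% of all genes were called. All these counts include members chosen through their pull-down counts, Snora21, Scarna3a and Snora57 among them, which favours a call. Only the 7 members that reached 20 counts in Input alone can be set against the shares of all genes. Of the 7 members that reached 20 counts in Input alone, 0 were called with group alone (5, 5 and 6 had an unadjusted p under 0.05, against 18.9%, 18.3% and 18.8% of all genes, and DESeq2 called 3, 4 and 2). With the experiment as a term, all 7 were above Input by sign with each probe set without the Input library of experiment 2. Without that of experiment 1, 6, 5 and 7 were. In the same fit on all 8 libraries 4, 4 and 5 of them were called, against 12.7%, 12.6% and 12.8% of all genes. The count was 1 for LacZ without the LacZ library of experiment 2, 0 for ODD without the ODD library of experiment 2 and 1 for EVEN without the EVEN library of experiment 1. Without the Input library of experiment 1, no member was called over Input with any probe set and group alone, against 1.24%, 0.759% and 0% of all genes.

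**Figure D3:**
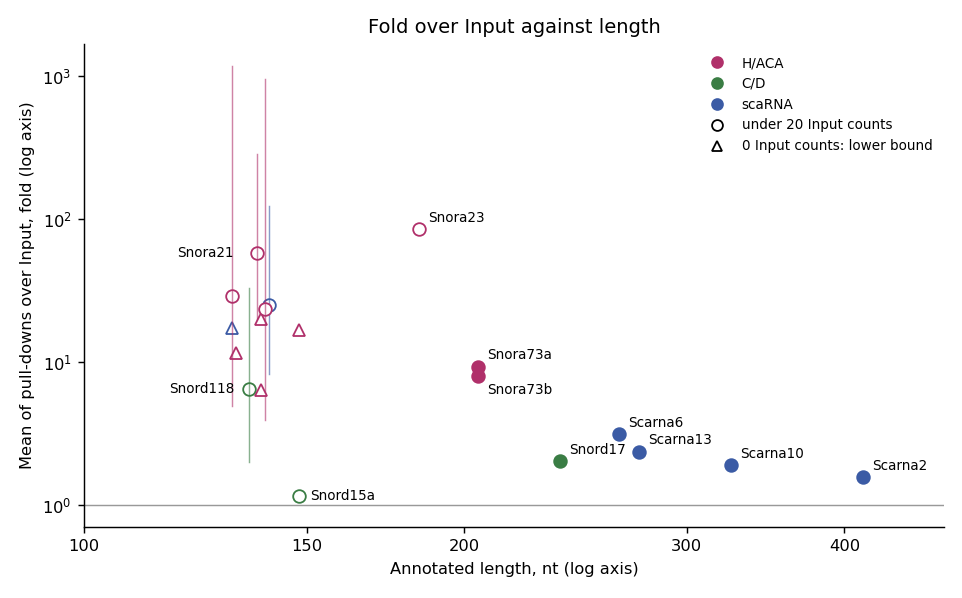
Mean CPM of the 3 pull-down groups over that of Input (log axis) against annotated length in nt (log axis) for the 19 members, coloured by class; filled points had 20 or more Input counts, open circles fewer, triangles are lower bounds from a floor of 3 counts, and bars are 95% exact counting intervals where Input had 1 to 3 counts. Among the filled points the ratio falls from 9.24 for Snora73a, of 205 nt, to 1.56 for Scarna2, of 414 nt.

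Among the 7 members with at least 20 Input counts, the shorter had the larger ratios over Input (Spearman rho of length and ratio -0.883). The shortest of these, with the largest ratios, were Snora73a and Snora73b, near-identical copies that enter as separate points. Across all 19, with the floor for those at 0, rho was -0.607, but the other 12 were chosen through their pull-down counts, which itself favours large ratios in RNAs with few Input counts. These are descriptions over members that share the same libraries, and class and length go together, since the long members are scaRNAs. Members of similar length also differed: Snora73a, of 205 nt, was at 9.24-fold and Snord17, of 238 nt, at 2.03-fold. Of the 97 other tested genes of 131 to 414 nt, 25 were annotated as snoRNA or scaRNA under other symbols. The 72 of other types had a median log2 fold change over Input of 0.65, 0.41 and 0.53 for LacZ, ODD and EVEN, and 8.33%, 5.56% and 5.56% of them were called higher. The contribution of length was not tested.

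No member was called different between the Lhx1os probes and the LacZ probes. Of the 15 tested members, 0 were called with ODD, with EVEN or with their mean against LacZ (edgeR; 0, 1 and 0 at an unadjusted p under 0.05), and 0 with the experiment as a term. The share of all genes called by edgeR was 0%. DESeq2 called 0 members, against 0.00605%, 0.0726% and 0.0121% of all genes higher with ODD, EVEN and their mean. The target Lhx1os itself, at a log2 fold change of 5.42 (SE 1.10) for the mean of ODD and EVEN, did not pass either, with an adjusted p of 1.00. Scarna2 with EVEN probes came nearest to a call, at 159 and 123 CPM against 69.5 and 60.4 CPM with LacZ, a log2 fold change of 1.12 (SE 0.408, edgeR adjusted p = 1.00). It was higher in both experiments. With no filter on low counts its adjusted p was 0.0279, where 0.213% of all genes were called higher, and over the alternatives it ran from 0.0279 to 1.00. With ODD probes the same RNA was at 71.5 and 87.2 CPM, a log2 fold change over LacZ of 0.29 (SE 0.404). The others with the smallest p were Scarna13 with ODD, at -0.64 (SE 0.601), and with EVEN Scarna3a, at 0.54 (SE 0.483), and Scarna6, at -0.41 (SE 0.523). With both Lhx1os sets averaged and set against LacZ, Scarna2 was at 0.70 (SE 0.360), Scarna3a at 0.36 and Scarna6 at -0.31. Snora21, called over Input with each set, was at -0.32 (SE 0.525) with ODD against LacZ.

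The H/ACA snoRNAs Snora73a, Snora73b, Snora23 and Snora21 were higher in the pull-downs of experiment 2 than in those of experiment 1. In a comparison added after the data were seen, replicate 2 was set against replicate 1 over the 6 pull-down libraries with the probe set as a further term (edgeR, 16295 genes). Of 15 tested members, 8 were higher in replicate 2, against 19.2% of all genes called higher and 21.8% called lower: these were the 8 tested H/ACA members, with 0 of 6 scaRNAs and 0 of 1 C/D (also 0 and 0 at an unadjusted p under 0.05 and by DESeq2). DESeq2 called 6 of the 8, against 13.7% of all genes. The count was 5 without the LacZ or ODD library of experiment 1 or the ODD library of experiment 2, where 14.5%, 10.3% and 11.3% of all genes were called higher. The filter on low counts can pass a gene through replicate 2 alone, and only Snora73a, Snora73b, Snora23 and Snora21 of the 8 also had 10 counts in at least 2 of the 3 replicate 1 pull-downs. Snora15, Snora17, Snora34 and Snora57 did not. The count of 8 beside the share of all genes is therefore a description, not support for a rise of the class. Snora73a and Snora73b, being near-identical, are not independent of each other.

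Snora23 rose by 3.49 on the log2 scale (SE 0.338, adjusted p = 0.000583) and Snora34, with 1 to 4 counts in experiment 1, by 3.36 (SE 0.422, adjusted p = 0.00148). Snora34 passed the filter only through replicate 2, so its test is not support for a rise. For Snora23 that was from 0.483 to 1.68 CPM in the pull-downs of experiment 1 to between 12.1 and 15.4 CPM in those of experiment 2. Snora73a rose by 2.15 (SE 0.219, adjusted p = 0.000691), Snora73b by 1.76 (SE 0.239, adjusted p = 0.00198) and Snora21 by 0.83 (SE 0.242, adjusted p = 0.0335). With each probe set the level of these 5 was higher in experiment 2. In Input, Snora23 had 3 counts and then 1, too few for a direction to be read. The abundant scaRNAs differed less: the log2 difference was -0.12 (SE 0.129) for Scarna2, 0.20 (SE 0.110) for Scarna10, -0.28 (SE 0.259) for Scarna13 and 0.39 (SE 0.278) for Scarna6, none of them called. Snord17 was at -0.35 (SE 0.236). The summed H/ACA level in experiment 2 was 3.64-fold (LacZ), 6.62-fold (ODD) and 2.96-fold (EVEN) that in experiment 1, and 1.30-fold in Input. The scaRNA sum was at 2.46-fold in Input and 0.974-fold, 1.33-fold and 0.750-fold in the pull-downs.

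**Figure D4:**
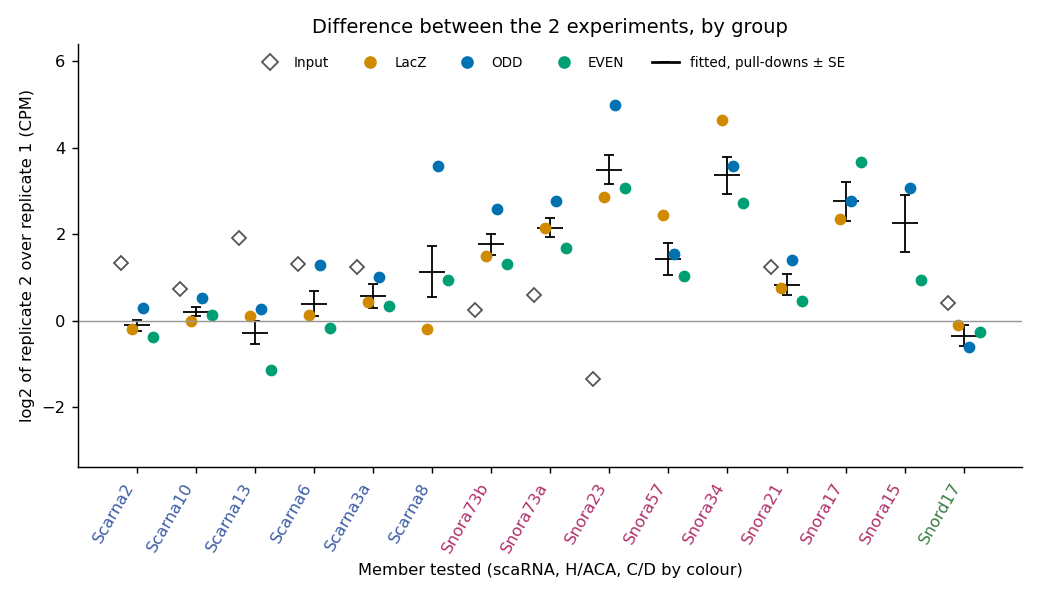
log2 of replicate 2 over replicate 1 in CPM for the 15 tested members, by class; points are the 3 pull-down groups and open diamonds Input (groups with 0 counts in a library are not drawn), and black bars are the fitted difference over the 6 pull-downs ± SE. All 8 H/ACA bars lie above 0, and the bars of the 4 long scaRNAs lie near 0 with their Input diamonds above. Snora15, Snora17, Snora34 and Snora57 may have passed the filter on low counts through replicate 2 alone, which favours a bar above 0.

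Whether the replicate difference of the pull-downs differed from that of Input was tested with an interaction term. Input had 1 library in each experiment, so the spread came from the pull-downs and the lone Input libraries are assumed to vary like them. It was called for 1 member, Scarna2, which was 2.54-fold higher in experiment 2 in Input but 0.869-fold, 1.22-fold and 0.771-fold in the LacZ, ODD and EVEN pull-downs. The interaction was -1.44 on the log2 scale (SE 0.249, edgeR adjusted p = 0.0276), with 3.71% of all genes called in the same direction and 1.28% in the other. Among the 97 other tested genes of 131 to 414 nt the median was -0.59 and the lower quartile -1.44, with 17 called in this direction. A difference of this size was therefore not particular to Scarna2. Snora73a and Snora73b were at 1.57 (SE 0.616) and 1.54 (SE 0.610) and did not pass (adjusted p = 0.196 and 0.201). For members with 0 to 4 Input counts this term rests on too few counts to be read. Other genes moved between the experiments too: 5 of 8 motor neuron markers were higher and 3 of 4 progenitor markers lower in replicate 2 of the pull-downs, against 19.2% and 21.8% of all genes, and the oligodendrocyte marker Mbp was lower, at -2.63 on the log2 scale (SE 0.0689). The capture target was lower by 2.21 on the log2 scale (SE 0.330). Their part in the rise of Snora23, Snora21 and the Snora73 copies between experiments was not tested.

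The host genes of the members lay near their Input level. Of the 19 members, 14 lie within a host gene on the same strand, and the 13 hosts had log2 fold changes over Input from -0.63 to 0.55 with LacZ, -0.77 to 0.54 with ODD and -0.92 to 0.66 with EVEN probes. The smallest adjusted p of a host was 0.0502 by edgeR, for Zbed3, host of Snora47, at -0.92 (SE 0.205) with EVEN probes. The ribosomal protein gene Rpl23, host of Snora21, was at 0.41 (SE 0.305) with LacZ probes against 5.83 for Snora21, and the nuclear import gene Ipo7, host of Snora23, at 0.12 (SE 0.195) against 6.17. Snora21 and Snora23 were chosen through their pull-down counts, so these gaps are given as values and support nothing. Rcc1, which with Snhg3 hosts both Snora73 copies, was at -0.23 (SE 0.195) against 3.34 and 3.15. Snhg3 was not compared, so for these copies host means Rcc1 here. Of the 6 members with a tested host that reached 20 counts in Input alone, 6 were above their host with each probe set, the Snora73 copies being set against Rcc1 only. Between experiments, 3 of 13 hosts were higher and 6 lower in replicate 2 of the pull-downs, against 19.2% and 21.8% of all genes, Rpl23 and Rcc1 among the lower at -0.45 (SE 0.1304) and -0.27 (SE 0.0769), while Ipo7 was at 0.05 (SE 0.0971).

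**Figure D5:**
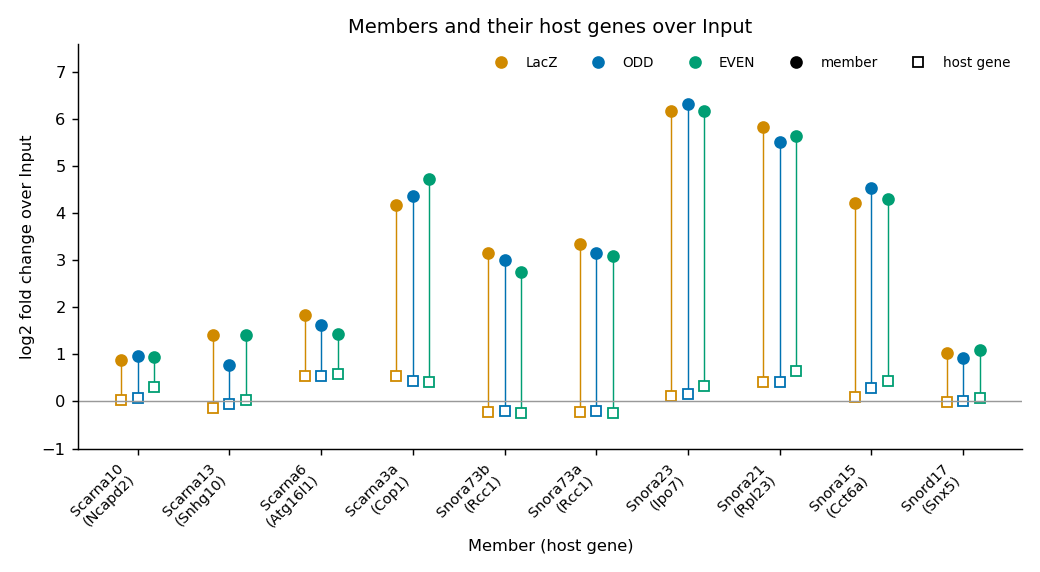
log2 fold change over Input of 10 members (circles) and of the host gene of each (open squares), with LacZ, ODD and EVEN probes by colour; members with 0 Input counts are left out because their fold has no upper limit. Each circle lies above its square, and the squares lie between -0.25 and 0.66. Snora23, Snora21, Scarna3a and Snora15 were chosen through their pull-down counts, which favours a circle above its square. For the Snora73 copies the square is Rcc1, and Snhg3 is not drawn.

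The mRNAs of the proteins that bind or assemble these RNAs were also tested. Of the 6 H/ACA proteins (dyskerin Dkc1, Nop10, Nhp2, Gar1, Naf1 and Shq1), 9 C/D proteins and assembly factors (among them fibrillarin, Fbl) and 5 Cajal body proteins (among them coilin, Coil, and Smn1), 0 were called over Input by edgeR with group alone. At an unadjusted p under 0.05 there were 1, 3 and 2 of the C/D list with LacZ, ODD and EVEN and 0 of the other lists, against 18.9%, 18.3% and 18.8% of all genes. Dkc1 was at -0.09 (SE 0.187) and Smn1 at -0.14 (SE 0.215) with LacZ probes against Input. With the experiment as a term, Nop56 and Znhit6 of the C/D list were called higher than Input with ODD probes, at 2.47 (SE 0.612, adjusted p = 0.0295) and 1.90 (SE 0.450, adjusted p = 0.0248), and Snu13 lower with LacZ, at -0.69 (SE 0.199, adjusted p = 0.0492). Between experiments, 3 of the 6 H/ACA and 3 of the 9 C/D mRNAs were lower in replicate 2 of the pull-downs, against 21.8% of all genes, with Nop10 at -1.32 (SE 0.115, adjusted p = 0.000418). Of the 5 Cajal body mRNAs 1, for the cap methylase Tgs1, was higher, against 19.2% of all genes.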

How the data were processed

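Input and 3 kinds of RNA pull-down (LacZ, ODD and EVEN probes) were sequenced in 2 libraries each. Per the labels' protocols, RNA was extracted with a miRNeasy kit and libraries were made with a stranded, ribosome-depleting total RNA kit. The authors deposited read counts per Ensembl gene, with annotated length, and FPKM values computed from them. The deposited FPKM equalled counts divided by length and library total within 6.66e-14 (relative). Per the submitters' processing notes, cutadapt 3.2, Bowtie2 2.4.2, Picard and HTSeq 0.13.5 were used with build GRCm38. Their roles and the strand setting of counting are not stated there. Symbols, lengths, hosts and sequences came from GENCODE M21, whose gene lengths equalled the deposited ones for 54741 (99.1%) of 55230 annotated genes. No column belonged to another sample (0).

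Counts were tested with edgeR 4.0.16 (R 4.3.3, limma 3.58.1; quasi-likelihood test, TMM library sizes, filterByExpr, 8 libraries, group as term, Benjamini-Hochberg over all genes, threshold 0.05). Alternatives were DESeq2 1.42.0, its size factors, plain library totals, no filter, a filter of 50 counts, the replicate as a block, only the groups compared, and each library left out. A replicate contrast and its interaction with Input were added after the data were seen. Only edgeR's fits of ODD against Input with group alone and of the replicate contrast were tested on simulated data. The other fits were not. The labels give the replicate number as the independent experiment. Deviations of same-numbered libraries from their group means correlated in all 6 pairs of groups (r 0.517 to 0.719), so the numbers pair the libraries. No label says that libraries of 1 group came from separate cultures beyond this. Named RNAs were the 8 most abundant members of each class by FPKM, the 10 largest called changes over Input, members at 0 in Input, every scaRNA, the 3 smallest p against LacZ, the 3 genes on either side of the minimum, and imprinted and rRNA-processing snoRNAs. The members and gene lists were chosen with earlier results of these data known. Counting intervals (95%, exact) and floors (3 counts) cover counting error only. A further marker gene is not reported here.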

Additional observations from a re-analysis of the deposited data

Results flagged for a closer look

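Scarna2 differed between Input and the pull-downs in how its level changed from experiment 1 to experiment 2, by an interaction test whose spread came from the pull-downs. It went from 34.4 to 87.3 CPM in Input, and from 69.5 to 60.4 CPM with LacZ, from 71.5 to 87.2 CPM with ODD and from 159 to 123 CPM with EVEN probes. The interaction was -1.44 on the log2 scale (SE 0.249, edgeR adjusted p = 0.0276), with an adjusted p from 0.000594 to 0.0375 over the alternatives. Input had 1 library in each experiment, so its own spread was not measured, and no alternative leaves out an Input library, since the term then cannot be fitted. Scarna13 had a larger difference of the same sign, -2.18, that did not pass (edgeR adjusted p = 0.0640). Of the 15 tested members 1 was called, against 3.71% of all genes in this direction. The 97 other tested genes of 131 to 414 nt had a median of -0.59 and a lower quartile of -1.44, and 17 of them were called in this direction. The difference of Scarna2 was therefore not unusual for genes of its length range.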

How the results depend on the processing

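Members called higher than Input by group alone (2, 2 and 3 with LacZ, ODD and EVEN) numbered 10, 11 and 8 with DESeq2, 15, 14 and 16 with no filter, 1, 1 and 1 with a filter of 50 counts (4.05%, 3.84% and 3.56% of all genes), 12, 12 and 13 with the replicate block, and 5 for LacZ with only the groups compared (5.04% of all genes). Leaving out 1 library gave 0 to 4, 0 to 4 and 0 to 3 by group alone (1.24% to 5.76%, 0.759% to 5.09% and 0% to 4.26% of all genes), and 4 to 11, 3 to 12 and 7 to 12 with the replicate as a term (5.38% to 13.9%, 6.81% to 14.1% and 5.00% to 14.6%). The counts over Input include members chosen through their pull-down counts. Against LacZ, the count for EVEN was 1 with no filter. The replicate contrast called 4 members with a filter of 50 counts (23.8% of all genes) and 5 to 8 with 1 library left out (10.3% to 19.2%). Its interaction with Input called 2 members with no filter (Scarna2 and Scarna13), both lower, against 3.37% of all genes called lower and 1.71% higher. The log2 fold change of Scarna2 ran from -0.43 (without Input replicate 1) to 0.91 for LacZ and from -0.15 to 1.19 for ODD over Input, and was -0.02 for LacZ without LacZ replicate 1. That of Snora15 for LacZ over Input ran from -1.82 (without LacZ replicate 2) to 5.90, and that of Snora21 for ODD over LacZ from -1.16 to 0.23, with 0.11 without LacZ replicate 2. The causes were not tested beyond what leaving out samples or genes itself does. Of the single-RNA results under the alternatives, 751 stayed on their side of the threshold, 98 newly passed it, 30 no longer did and 6 changed sign. The ratios of the class sums over Input moved by less than the spread between libraries.

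With 2 libraries a group, 12 members below 20 Input counts and short RNAs near the limit of what these libraries hold, depth limits most single folds, and a member not called is not shown to be unchanged.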

Other observations

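Another 1409 genes annotated as snoRNA or scaRNA carry other symbols and were outside the rule. Of these, 88 had a count and 33, all with predicted-gene (Gm) symbols, had at least 20. Among the 33, 25 had an ACA box starting in the last 8 bases and 5 had both C and D boxes. Most of the 33 reached this minimum only through the pull-downs, so their rise over Input is a description. Gm26448, Gm22486, Gm22009, Gm23119, Gm23262, Gm23547, Gm25395, Gm25776 and Gm25835 reached it in Input alone. Of these, Gm25776 (ACA box), Gm25395 and Gm23547 (C and D boxes) were called over Input with each probe set by edgeR with group alone. Gm23262 was called with LacZ and ODD only, and the rest were not called. Over all genes 6.98%, 6.46% and 5.37% were called higher (LacZ, ODD, EVEN). Gm26448, of 203 nt, had 15 and 17 counts in Input, 19 and 93 with LacZ, 25 and 93 with ODD and 45 and 78 with EVEN probes. Gm22748 had 1 and 0 counts in Input, 4 and 47 with LacZ, 7 and 53 with ODD and 14 and 44 with EVEN. In both, every pull-down of experiment 2 exceeded those of experiment 1 with the same probes. Between replicates of the pull-downs, 14 of the 18 tested genes with an ACA box were called higher in replicate 2 by edgeR, with log2 differences from 0.45 to 3.88, and 1 of the 5 with C and D boxes was, with differences from -0.27 to 0.70. Over all genes 19.2% were called higher. The filter on low counts can pass such a gene through replicate 2 alone. Gm22270, for example, had 1, 1 and 3 counts in replicate 1 and 21, 22 and 37 in replicate 2 (LacZ, ODD, EVEN). The number called is therefore a description, not support for the result on the named members.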
